A study of Homo sapiens with 20 samples.

Results

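YAP-TFE3, the fusion that drives a subset of epithelioid hemangioendothelioma, was compared with TFE3, the full-length protein that supplies its C terminus, at the level of accessible chromatin. Of 1407450 peaks in the 7 deposited lists, 235795 belonged to the YAP-TFE3 list and 156421 to the TFE3 list. Between these lists, 96269 pairs of peaks overlapped 1 to 1 by 1 bp or more. A further 2521 YAP-TFE3 peaks and 4 TFE3 peaks with a summit −log10 p of 6 or more had no peak of the other list within 1 kb. These are called unmatched YAP-TFE3 peaks and unmatched TFE3 peaks here.

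The cells were SW872, an established human liposarcoma line, and all 20 libraries came from cells stably transduced and selected with a retroviral vector. The vectors were the empty vector (EV), TAZ4SA and YAP5SA, CAMTA1 and TFE3 in full length, and both fusion proteins, TAZ-CAMTA1 and YAP-TFE3. TAZ4SA and YAP5SA are full-length TAZ and YAP in which inhibitory serines were replaced by alanine, so that the Hippo kinases cannot restrain them. The YAP-TFE3 libraries carry the name Yap5SA-TFE3 in their titles, and 1 EV library, the third, is titled as a redo. YAP-TFE3 had 3 libraries and TFE3 had 2. SW872 is a sarcoma line but not an endothelial one, and no vector or label names a deletion of the cells' own YAP, TAZ or TFE3. The markers of the line could not be checked, since peak lists carry no expression values.

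YAP is a transcriptional coactivator that has no DNA-binding domain and reaches the genome mainly through the TEAD transcription factors. TFE3 is a member of the MiT family, binds DNA itself through a basic helix-loop-helix and leucine zipper, and is known for control of lysosomal and autophagy genes. The fusion joins the N terminus of YAP, with its TEAD-binding domain, to the C terminus of TFE3, with its transactivation, DNA-binding and zipper regions. The comparison of YAP-TFE3 with TFE3 asks how chromatin differs between the fusion and the full-length protein, which share the TFE3 C terminus but differ in their N termini, that of YAP in the fusion and that of TFE3 itself in the full-length protein. The YAP5SA, TAZ4SA and EV lists show whether an unmatched region was also open with an activated YAP or TAZ, or in cells without any of these proteins added.

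In ATAC-seq, a transposase inserts adapters into open DNA, and stretches rich in insertions are called as peaks. Each peak carries the authors' area under the curve, which sums a significance signal over the peak, and the −log10 p of its summit. Every vector had 1 list, so no value has a replicate error, no test between vectors was made, and the 95% intervals (Wilson) cover counting error only. The read depth of the lists is unknown and the areas are not stated to be scaled between lists, so a difference between the proteins, the sequencing depth and the number of libraries (3 against 2) cannot be told apart. Of the YAP-TFE3 peaks, 80465 (34.1%) had a summit −log10 p of 6 or more, against 47513 (30.4%) of the TFE3 peaks, and the highest summit −log10 p was 59.7 and 41.03. Positions are in hg19 (GRCh37) and count from 1. The genes at them were not analysed here, because the annotation at hand is of another build.

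Most TFE3 peaks overlapped a YAP-TFE3 peak by 1 bp or more, whereas the reverse held for about as many YAP-TFE3 peaks as not. Of the TFE3 peaks, 144351 of 156421 overlapped a YAP-TFE3 peak (92.3%, 95% interval 92.2 to 92.4). Of the YAP-TFE3 peaks, 124131 of 235795 overlapped a TFE3 peak (52.6%, 52.4 to 52.8). With equal numbers of peaks from both lists, the 156421 highest by −log10 p, these shares were 85.3% and 71.3%. The gap between the directions therefore narrowed, but remained, at equal list lengths. With equal numbers, the shares can differ only where several peaks of a list overlap the same peak of the other. In the full lists, counted below, this was more often several TFE3 peaks under the same YAP-TFE3 peak. The remaining gap thus reflects how peaks were split or merged, and cannot show that the open regions of TFE3 lay within those of YAP-TFE3.

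Whether a peak had a counterpart varied with its strength. In the YAP-TFE3 list, 14.2% of the peaks with a summit −log10 p of 3 to 4 overlapped a TFE3 peak, 61.7% of those of 5 to 6 and 98.9% of those of 8 to 10. In the TFE3 list, the share was already 77.9% at 3 to 4 and 99.3% at 5 to 6. YAP-TFE3 peaks that overlapped no TFE3 peak were narrow and weak, with a median width of 105 bp and a median area of 60.1, against 417 bp and 597 for those that did. The 12070 TFE3 peaks that overlapped no YAP-TFE3 peak had a median width of 98 bp and a median area of 35.7. These weak TFE3 peaks recurred elsewhere less often than TFE3 peaks in general. The share in another list was 70.5% against 94.9% of all TFE3 peaks for TAZ-CAMTA1, 55.0% against 90.5% for CAMTA1, 36.5% against 78.2% for YAP5SA, 29.2% against 72.4% for EV and 14.6% against 54.0% for TAZ4SA.

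Where both lists had a peak, the YAP-TFE3 list often drew it as 1 wide peak and the TFE3 list as several. Among YAP-TFE3 peaks, 20127 overlapped 2 or more TFE3 peaks, with a maximum of 9. The reverse, a TFE3 peak over 2 or more YAP-TFE3 peaks, occurred 4371 times. The pairs that overlapped 1 to 1 are therefore used below for width, area and summit.

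In these 96269 pairs the YAP-TFE3 peak was somewhat wider, had a much larger area and mostly had its summit close to that of the TFE3 peak. The median width was 345 bp in the YAP-TFE3 list and 227 bp in the TFE3 list, and the median log2 width ratio was 0.22 (quartiles 0.02 and 0.67), with the YAP-TFE3 peak wider in 77.4% of pairs. The median area was 464 against 161, and the median log2 area ratio was 1.22 (quartiles 0.79 and 1.85), with the larger area on the YAP-TFE3 side in 91.3% of pairs. Width accounted for a small part of this, since the area per base pair had a median log2 ratio of 0.95. The range over the 22 autosomes, which are not replicates, was 0.19 to 0.28 for the log2 width ratio and 1.13 to 1.39 for the log2 area ratio.

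**Figure D1:**
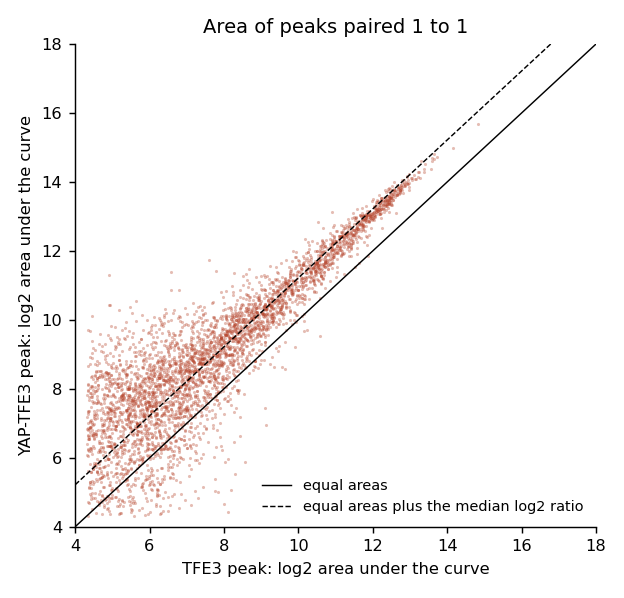
The plot shows the log2 area under the curve of an evenly spaced subset of the 1-to-1 pairs, with the TFE3 peak on the x axis and the YAP-TFE3 peak on the y axis. Points lie mostly above the solid line of equal areas and follow the dashed line, which is higher by the median log2 ratio of 1.22, and the scatter narrows toward large areas.

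The excess in area settled to nearly the same factor over strong sites. By the −log10 p of the TFE3 peak, the median log2 area ratio was 1.99 at 3 to 4, 1.39 at 4 to 5 and 1.17 at 5 to 6. It was then 1.11 at 6 to 7, 1.08 at 7 to 8, 1.10 at 8 to 10 and 1.06 at 10 to 15, and 0.95 for the 303 pairs of 15 or more. The spread shrank as well, from quartiles of 1.02 and 2.89 at 3 to 4 to quartiles of 0.95 and 1.16 at 10 to 15. The bins were set by the TFE3 value, so the higher ratios in the lowest bins are no measure of a larger change at weak sites. In the 29979 pairs in which both peaks had a −log10 p of 6 or more, the median log2 ratio was 1.08 for area, 0.12 for width and 0.92 for area per base pair. In these pairs the YAP-TFE3 area was the larger in 98.6%.

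An excess of similar size was seen against the empty vector. The median log2 area ratio of YAP-TFE3 over the other list was 1.74 for TAZ4SA, 1.27 for EV, 1.22 for TFE3, 0.72 for YAP5SA, 0.26 for CAMTA1 and 0.05 for TAZ-CAMTA1. TFE3 areas in turn were close to those of EV, with a median log2 ratio of TFE3 over EV of 0.14 in 83814 pairs, and were below those of YAP5SA with a ratio of -0.43. In area, the YAP-TFE3 list was thus nearest to the other fusion and the TFE3 list nearest to the empty vector.

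Summits coincided. The median signed shift between the YAP-TFE3 and the TFE3 summit was 0 bp and the median absolute shift was 16 bp (quartiles 5 and 50). The summit lay within 10 bp in 40.2% of pairs, within 50 bp in 75.2% and within 500 bp in 99.2%. By the median, stronger pairs were closer. The median absolute shift was 23 bp where the TFE3 −log10 p was 3 to 4, 10 bp where both peaks had 6 or more, and 2 bp where the TFE3 peak had 15 or more. Large shifts were not rarer, with a 95th percentile of 187 bp at 3 to 4 and 308 bp where both peaks had 6 or more. In the latter pairs the summit lay within 500 bp in 97.9%. For comparison, the median absolute shift of YAP-TFE3 summits was 16 bp from TAZ-CAMTA1, 18 bp from CAMTA1, 21 bp from EV, 22 bp from YAP5SA and 28 bp from TAZ4SA.

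**Figure D2:**
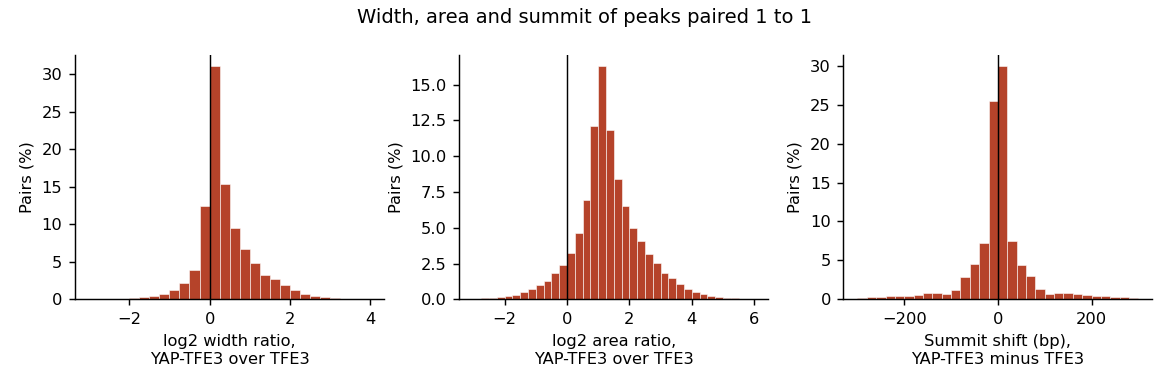
Histograms of the 1-to-1 pairs give the log2 width ratio, the log2 area ratio and the summit shift in bp (x axes) against the percentage of pairs (y axes); the vertical lines mark 0, and equal summits count in the bar to the right of it. Area is displaced furthest from 0 (median 1.22), width less (median 0.22), and the summit shift is centred on 0.

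A few strong pairs departed from the common factor. Where several peaks of a list overlap a region named here, the value of the strongest is given. Among pairs of −log10 p 6 or more in both lists, the largest log2 area ratio was 3.16 (8.92-fold) at chr20:6571210-6572693, where the YAP-TFE3 area was 6980 and the TFE3 area 783. At that site the area was 5804 in YAP5SA, 3083 in TAZ-CAMTA1, 2481 in CAMTA1, 1997 in TAZ4SA and 65.1 in EV. The TFE3 peak was thus larger than the strongest EV peak and smaller than the strongest peak of all others. The next was chr7:137326836-137328029 with an area of 4598 in YAP-TFE3 and 542 in TFE3 (8.49-fold), where the other areas ran from 145 in EV to 2766 in TAZ-CAMTA1. At chr1:152877358-152879236 the area was 6300 in YAP-TFE3 and 750 in TFE3 (8.40-fold), again with the lowest value, 406, in EV. In these 3 regions, by the strongest peak of each list, the YAP-TFE3 area was the highest of the 7 lists and the EV area the lowest. EV had 2 peaks in each of them and some other lists also had several, so areas of whole regions were not compared. The regions were chosen for a high YAP-TFE3 area relative to TFE3. At chr8:72754550-72757123 (10160 in YAP-TFE3, 1204 in TFE3, 8.44-fold) YAP-TFE3 was again the highest, but TAZ4SA was the lowest (805) and EV had 1385.

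At the other end, TFE3 had the larger area by at most 2.11-fold. This was at chr6:47146994-47147472, with an area of 1190 in TFE3 and 564 in YAP-TFE3. EV had 1147 there, CAMTA1 2125, TAZ-CAMTA1 3554 and YAP5SA 259, and TAZ4SA had no peak. At chr5:124395392-124395564 the area was 546 in TFE3 and 263 in YAP-TFE3 (2.07-fold), with 449 in EV and 242 in YAP5SA. At chr20:4057417-4057621 it was 793 in TFE3, 383 in YAP-TFE3 and 653 in EV. TAZ4SA was lower than YAP-TFE3 in both of these last regions, with 92.6 and 40.9. CAMTA1 and TAZ-CAMTA1 had larger areas than TFE3 in all 3, as they did over all pairs, where the median log2 ratio of TFE3 was -0.96 over CAMTA1 and -1.19 over TAZ-CAMTA1. At chr2:7017663-7018299 TFE3 had the highest area of all lists, 1384, against 670 in YAP-TFE3, 1137 in TAZ-CAMTA1, 805 in CAMTA1 and 274 in EV.

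The 3 largest summit shifts among these strong pairs were in very wide peaks. At chr11:65322362-65329018 the peaks were 6657 bp wide in YAP-TFE3 and 6506 bp in TFE3, and the summits were 4734 bp apart. The YAP-TFE3 summit, at position 65323390, was close to that of the strongest EV peak (65323399). TFE3, CAMTA1 and TAZ-CAMTA1 all had theirs at 65328124, YAP5SA at 65328116 and TAZ4SA at 65327599 in the strongest of 5 peaks. EV had 2 peaks there, and the strongest ended at 65324972, so its summit could not lie at the TFE3 position. At chr14:105552787-105561144 (3264 bp) and chr16:3069600-3074839 (2933 bp) the YAP-TFE3 summit stood apart from those of TFE3 and EV, which lay at the same base in the first region (105557011) and at 3070858 and 3070854 in the second.

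Peaks present in 1 list and missing within 1 kb in the other were almost all on the YAP-TFE3 side. There were 2521 among 80465 YAP-TFE3 peaks of −log10 p 6 or more (3.13%, 95% interval 3.01 to 3.26) and 4 among 47513 TFE3 peaks (0.00842%, 0.00327 to 0.0216). None of the 33685 TFE3 peaks of −log10 p 7 or more was unmatched, which allows a share of up to 0.00891%. Since the YAP-TFE3 list has more peaks past the threshold, the count was repeated on its 47513 highest by −log10 p, as many as the TFE3 list has, and 141 of these were unmatched. Raising the threshold to 8 left 173 unmatched YAP-TFE3 peaks and 0 TFE3 peaks. The side with more unmatched peaks did not change, but the number depended on the threshold.

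**Figure D3:**
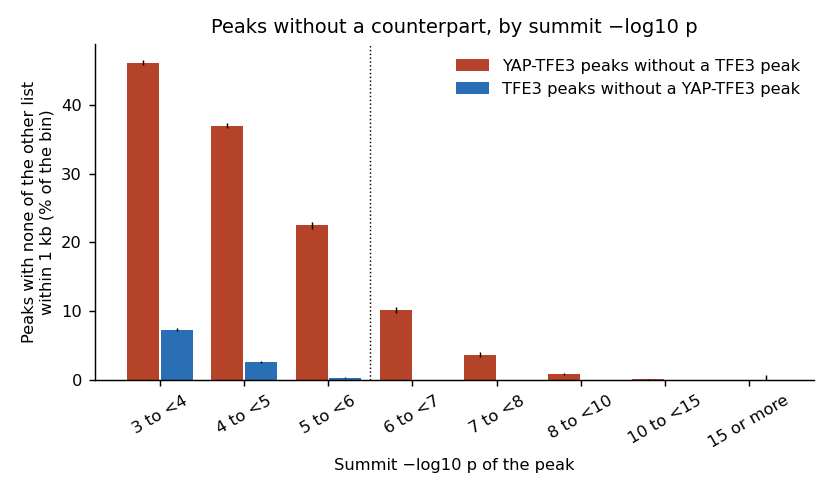
Bars give the percentage of peaks (y axis) in each bin of summit −log10 p (x axis) that had no peak of the other list within 1 kb, for YAP-TFE3 peaks (red) and TFE3 peaks (blue); error bars are Wilson 95% intervals and the dotted line marks the threshold of 6. The YAP-TFE3 share goes from 46.1% in the lowest bin to 10.2% at 6 to 7 and 0.887% at 8 to 10, while the TFE3 bars are barely visible past the threshold.

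Unmatched YAP-TFE3 peaks were mostly of modest strength. Their median −log10 p was 6.52 (6.0002 to 15.2), their median width 326 bp (107 to 2356) and their median area 453 (187 to 4928). The other YAP-TFE3 peaks past the threshold had medians of 9.10, 741 bp and 1456. The share without a TFE3 peak was 10.2% at −log10 p 6 to 7 (1880 peaks), 3.68% at 7 to 8 (468) and 0.887% at 8 to 10 (148), and 25 peaks of 10 or more were unmatched. The values just inside and just outside the threshold were 6.0002 and 5.9987 in the YAP-TFE3 list and 6.0403 and 5.977 in the TFE3 list.

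The distance from an unmatched YAP-TFE3 peak to the nearest TFE3 peak varied widely, above the minimum set by the definition. Its median was 9344 bp (1004 to 930787). Of the unmatched peaks, 48.5% lay more than 10 kb away, 14.3% more than 50 kb and 6.43% (162 peaks) more than 100 kb. Such distances were not computed for other peaks or positions, so whether these are unusually large was not tested. The share of YAP-TFE3 peaks past the threshold that were unmatched was between 2.00% on chromosome 20 and 5.06% on chromosome 13. The distance to be kept clear mattered less than the threshold, with 3745 unmatched peaks when overlap alone was excluded and 1679 when no TFE3 peak was allowed within 5 kb.

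Against the other lists, the YAP-TFE3 share without a counterpart was 1.01% for TAZ-CAMTA1 (812 peaks), 1.17% for CAMTA1 (940), 4.34% for YAP5SA (3490), 7.62% for EV (6128) and 16.6% for TAZ4SA (13340). TFE3, at 3.13%, stood between the other fusion and its C-terminal partner CAMTA1, which were lower, and YAP5SA, EV and TAZ4SA, which were higher. For TFE3 peaks the shares were 0.00842% against YAP-TFE3, 0.391% against YAP5SA (186 peaks), 0.274% against EV (130), 4.46% against TAZ4SA (2117) and 0.0% against both TAZ-CAMTA1 and CAMTA1 (0 of 47513, which allows up to 0.00631%). TFE3 peaks past the threshold thus had a counterpart in both fusion lists with 4 exceptions.

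The 2521 unmatched YAP-TFE3 peaks were found in the other lists far less often than YAP-TFE3 peaks in general, and least often in TAZ4SA and EV, whose intervals overlap. A YAP5SA peak overlapped 1408 of them (55.9%, 95% interval 53.9 to 57.8), a TAZ4SA peak 803 (31.9%, 30.1 to 33.7) and an EV peak 753 (29.9%, 28.1 to 31.7). Among all YAP-TFE3 peaks of −log10 p 6 or more these shares were 93.3%, 77.2% and 89.2%. The other fusion and its C-terminal partner held more of the unmatched peaks, TAZ-CAMTA1 74.8% (against 98.7% of all) and CAMTA1 71.6% (against 98.2%).

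**Figure D4:**
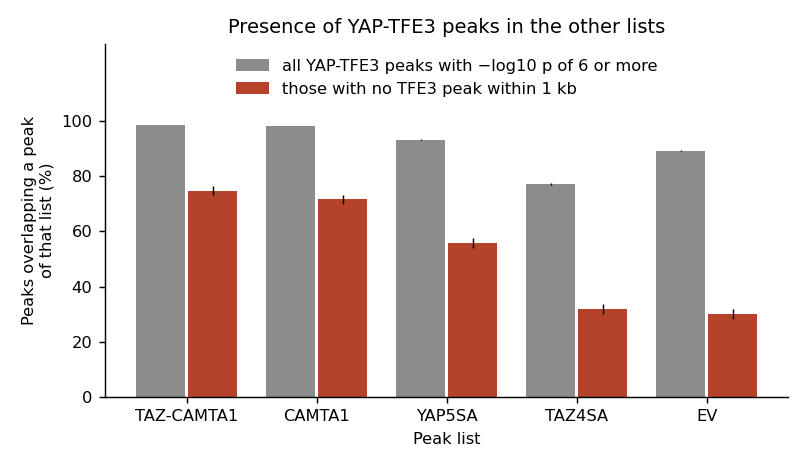
Bars give the percentage of peaks (y axis) that overlap a peak of each other list (x axis), for all YAP-TFE3 peaks of −log10 p 6 or more (grey) and for those without a TFE3 peak within 1 kb (red); error bars are Wilson 95% intervals. The drop from grey to red is largest for EV, from 89.2% to 29.9%.

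The balance of TAZ4SA and EV differed between unmatched peaks and all peaks. Among all YAP-TFE3 peaks past the threshold, 13250 overlapped an EV peak and no TAZ4SA peak, and 3551 a TAZ4SA peak and no EV peak. Among unmatched peaks the numbers were 470 and 520, so TAZ4SA without EV went from the clear minority to slightly the more frequent. This order held only at a −log10 p of 7 or more. At 6 to 7, 375 unmatched peaks were found with EV and not TAZ4SA and 347 with TAZ4SA and not EV. Among all YAP-TFE3 peaks of that bin these numbers were 6187 and 1997. At 7 to 8 they were 65 and 119 among unmatched peaks. When unmatched meant only that no TFE3 peak overlapped, EV held 32.9% of the peaks and TAZ4SA 31.7%. Which of the 2 was higher thus depended on the gap as well as on peak strength. The share of these discordant peaks that were on the TAZ4SA side was higher among unmatched peaks than among all peaks on 22 of 22 autosomes. The autosomes come from the same lists and are not replicates, and this count was not split by peak strength. The TAZ4SA list is the shorter of these lists, with 152702 peaks against 171102 in EV.

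For YAP5SA the balance did not turn, since peaks found with YAP5SA and not EV were the more numerous among all YAP-TFE3 peaks past the threshold too (6246 against 2992), but the ratio was larger among unmatched peaks. Of the unmatched peaks, 901 (35.7%) overlapped a YAP5SA peak and no EV peak and 246 (9.76%) an EV peak and no YAP5SA peak, against 7.76% and 3.72% of all YAP-TFE3 peaks past the threshold. In total 1032 unmatched peaks (40.9%, 39.0 to 42.9) were in the YAP5SA or TAZ4SA list and not in EV, against 8.30% of all. Only 196 (7.77%) were in EV and in neither of them, against 2.61% of all.

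Because unmatched peaks are weaker than the rest, the shares were also set side by side within bins of −log10 p. At 6 to 7, EV held 30.6% of the unmatched peaks and 69.6% of all peaks, YAP5SA 53.7% and 79.8%, and TAZ4SA 29.1% and 47.0%. At 7 to 8, EV held 27.1% against 83.8%, YAP5SA 62.8% against 91.0%, and TAZ4SA 38.7% against 62.7%. At 8 to 10 (148 unmatched peaks), EV held 29.1% against 94.6%, YAP5SA 60.8% against 97.0%, and TAZ4SA 40.5% against 80.6%. Of the 25 unmatched peaks of 10 or more, 14 were in TAZ4SA, 15 in YAP5SA and 7 in EV, where these lists held 98.2%, 99.9% and 99.7% of all YAP-TFE3 peaks of that strength. All 3 lists thus held fewer of the unmatched peaks than of all peaks in every bin. Among all peaks the share in each list was higher in stronger bins. Among unmatched peaks this was so for TAZ4SA but not for YAP5SA or EV. The TAZ4SA intervals at 7 to 8 (34.4 to 43.2) and at 8 to 10 (33.0 to 48.6) overlapped.

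A balance of TAZ4SA and EV less on the EV side than among all peaks was not confined to peaks unmatched in TFE3. YAP-TFE3 peaks without a TAZ-CAMTA1 peak within 1 kb (812) were in TAZ4SA and not EV in 263 cases and in EV and not TAZ4SA in 39, a wider gap than for TFE3. Those without a CAMTA1 peak (940) had 113 and 172. EV thus stayed ahead in that set, though by less than among all YAP-TFE3 peaks past the threshold (3551 and 13250).

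The split by all 3 lists left 736 unmatched peaks (29.2%) in none of YAP5SA, TAZ4SA and EV, against 2.47% of all YAP-TFE3 peaks past the threshold. The next largest class was YAP5SA alone with 512 (20.3%, against 3.89%), followed by YAP5SA with TAZ4SA (389, 15.4% against 3.87%), YAP5SA with EV (274, 10.9% against 13.9%) and all 3 (233, 9.24% against 71.7%). EV alone held 196 (7.77% against 2.61%), TAZ4SA alone 131 (5.20% against 0.542%) and TAZ4SA with EV 50 (1.98% against 1.10%). Counting all 5 other lists, 193 unmatched peaks (7.66%, 6.68 to 8.76) were in no other list, against 0.292% of all. Another 192 (7.62%) were in all 5 of these lists, against 71.5% of all. Most unmatched regions therefore had a peak in at least 1 list besides YAP-TFE3.

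Where another list did have a peak, it was weaker. The median −log10 p there was 4.78 in YAP5SA, 4.70 in TAZ4SA, 4.27 in EV, 4.75 in CAMTA1 and 4.79 in TAZ-CAMTA1, against 6.4997 to 6.62 for the same regions in YAP-TFE3. YAP5SA had the higher −log10 p in 166 of 1408 regions (11.8%) and a value of 6 or more in 290 (20.6%). EV had the higher one in 6 of 753 (0.797%) and a value of 6 or more in 10. The YAP-TFE3 values were selected to be 6 or more and the others were not, so the gap to YAP-TFE3 is a description of that choice as well. Among the other lists, none of which was selected, EV had the lowest median and YAP5SA the largest share of 6 or more. EV also had the lowest median (4.67) and the lowest share of 6 or more (27.4%) over whole lists, where YAP5SA had 30.1%. The place of EV is therefore not particular to these regions, and each list's values cover a different set of them.

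The 8 unmatched YAP-TFE3 peaks with the highest −log10 p show these classes site by site. The first, chr5:94416771-94418294, was 1524 bp wide with a −log10 p of 15.2 and an area of 4294. There the −log10 p was 5.77 in TAZ4SA, 5.21 in YAP5SA and 3.91 in CAMTA1, and EV, TAZ-CAMTA1 and TFE3 had no peak, the nearest TFE3 peak being 95406 bp away. The region was therefore called in 4 lists, and YAP-TFE3 stood far above the other 3.

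The second, chr3:97731866-97733343, had the largest area of all unmatched peaks, 4928, and a −log10 p of 13.1, with 5.05 in TAZ-CAMTA1, 4.43 in YAP5SA and 3.996 in CAMTA1. The third, chr5:87811813-87812697, had 12.5, against 6.62 in TAZ-CAMTA1, 4.12 in YAP5SA and 3.59 in CAMTA1. The fourth, chr12:58636428-58637352, had 12.1, with 6.18 in TAZ-CAMTA1, 5.75 in CAMTA1 and 3.99 in YAP5SA, and the summits in YAP-TFE3 and TAZ-CAMTA1 fell on the same base (58636769). None of these 3 regions had a peak in EV or TAZ4SA, and they are also the strongest members of the class found with YAP5SA and neither TAZ4SA nor EV.

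The fifth, chr7:18547997-18549525, was open with both activated coactivators. Its −log10 p was 11.96 in YAP-TFE3, 7.81 in YAP5SA, 6.79 in TAZ4SA, 5.13 in CAMTA1 and 3.77 in TAZ-CAMTA1, with the nearest EV peak 162451 bp and the nearest TFE3 peak 283078 bp away. The YAP-TFE3 and YAP5SA summits were at the same base, 18548761. The sixth, chr11:56972099-56973068, had 11.9, against 8.06 in TAZ-CAMTA1, 5.44 in CAMTA1 and 4.74 in TAZ4SA, and its nearest EV peak was 923 bp away. The eighth, chr11:102668768-102669474, had 11.3 in YAP-TFE3, 6.35 in CAMTA1, 5.35 in TAZ4SA and 3.98 in TAZ-CAMTA1, with no YAP5SA or EV peak. The seventh, chr5:94371563-94372269, was the single region of the 8 with an EV peak, at 4.6004 against 11.8 in YAP-TFE3.

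**Figure D5:**
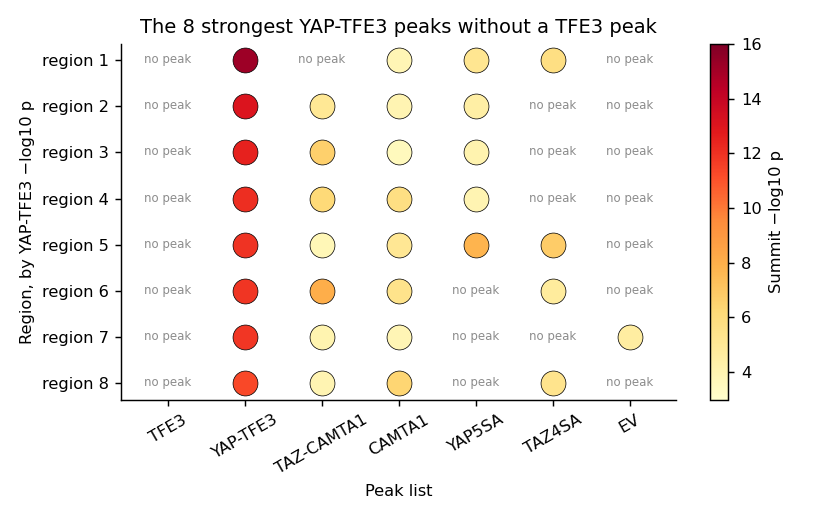
Rows are the 8 unmatched YAP-TFE3 peaks with the highest summit −log10 p, columns are the 7 peak lists, and a circle's colour gives the −log10 p of the strongest overlapping peak. Regions 2 to 4 are chr3:97731866-97733343, chr5:87811813-87812697 and chr12:58636428-58637352. CAMTA1 has a weaker peak in every row, EV in 1 row and TFE3 in none.

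Among the 193 unmatched peaks in no other list, the strongest were weaker than these. The first was chr12:88703129-88704196, 1068 bp wide with a −log10 p of 9.86 and an area of 2393, with a TAZ4SA peak as its closest neighbour among the other lists, at 9559 bp. It was followed by chr5:82879244-82880285 (9.24) and chr10:19206627-19207303 (8.99). This last region lay 331 bp from a YAP5SA peak and 257490 bp or more from the peaks of every remaining list.

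Some unmatched peaks followed each other without a TFE3 peak between them. Of the 2521, 562 (22.3%) stood in 235 such runs of 2 or more, and 61 runs held 3 or more. A run requires only that no TFE3 peak intervenes, and 1 run of 3 peaks spanned 873202 bp, so a run is not by itself a cluster of peaks. The longest run by number held 13 unmatched peaks over 64464 bp at chr5:94359108-94423571, and included the first and the seventh of the regions described above. The YAP-TFE3 list had 46 peaks in that span, against 4 each in YAP5SA and EV, 3 in CAMTA1, 2 in TAZ4SA, 1 in TAZ-CAMTA1 and 0 in TFE3. The summed area was 17698 in YAP-TFE3 and at most 441, in YAP5SA, elsewhere. The nearest TFE3 peaks lay 54020 bp before and 90129 bp after the span, and no peak of another list inside it reached a −log10 p of 6.

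The other runs varied in how many of their peaks were found elsewhere. At chr6:1024845-1191076, 7 unmatched peaks spanned 166232 bp, of which 5 were in CAMTA1, 5 in TAZ-CAMTA1, 3 in YAP5SA, 3 in TAZ4SA and 2 in EV. At chr17:10278548-10482986, 6 unmatched peaks spanned 204439 bp, of which 4 were in each of CAMTA1, TAZ-CAMTA1 and YAP5SA, 2 in TAZ4SA and 0 in EV. At chr6:164506571-164530769, 5 unmatched peaks spanned 24199 bp, of which 2 were in TAZ-CAMTA1, 1 in each of CAMTA1 and YAP5SA, and 0 in TAZ4SA and EV. In the chromosome 5 run, 4 of 13 were in EV, 2 in each of YAP5SA, TAZ4SA and CAMTA1, and 1 in TAZ-CAMTA1. Its share in EV was close to the 29.9% of all unmatched peaks. Its shares in the other 4 lists were lower than those of all unmatched peaks, which were 55.9% in YAP5SA, 31.9% in TAZ4SA, 71.6% in CAMTA1 and 74.8% in TAZ-CAMTA1. With 13 neighbouring peaks of a run named for its length, these differences describe this run only and have no interval.

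The 4 unmatched TFE3 peaks were all close to the threshold. They lay at chr10:115391467-115391739, chr2:218556457-218557229, chr6:25230014-25230200 and chr6:15793425-15793843, with −log10 p of 6.26, 6.15, 6.15 and 6.04. The nearest YAP-TFE3 peak was 12445, 1911, 5831 and 23157 bp away. Each of them was also open in EV, YAP5SA, CAMTA1 and TAZ-CAMTA1, so none was particular to the TFE3 list, and both regions on chromosome 6 were in TAZ4SA as well. At chr6:25230014-25230200 the −log10 p was 12.4 in YAP5SA, 9.33 in CAMTA1, 7.60 in TAZ4SA, 7.06 in EV and 6.03 in TAZ-CAMTA1. At chr6:15793425-15793843 it was 9.58 in YAP5SA and 4.68 in EV. In both regions on chromosome 6, YAP-TFE3 was the single list of the 7 without a peak.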

How the data were processed

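ATAC-seq peak lists of SW872 cells, 1 per vector and 7 in all, were used as deposited. According to the methods of the study, adapters were removed with NGmerge, reads were aligned with BWA-MEM to hg19, and peaks were called with Genrich in ATAC mode with PCR duplicates removed and artefact regions excluded. The submitters' processing notes name Bowtie 0.12.2 and mm8 instead, but the peak positions are those of hg19. The methods describe calling per replicate, whereas each list holds 1 set of peaks, and how libraries were combined is not given in the sources used here. The authors' signal is the area under the significance curve of a peak, and the authors' −log10 p is that of its summit. Both were used as deposited. Depth per library is unknown.

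Overlap meant 1 bp or more, and distances were checked against bedtools 2.31.1 (0 differed) and on simulated lists. An unmatched peak had a −log10 p of 6 or more and no peak of the other list within 1 kb. Python 3.11.15, numpy 2.4.6 and pandas 2.3.3 were used. Named regions were those with the highest −log10 p in each class, and the pairs of −log10 p 6 or more in both lists with the largest and smallest area ratio and the largest summit shift. Members, thresholds and alternatives were chosen with earlier results of these data known. Genes, sequences and motifs were not analysed here, since the reference at hand is of another build than the peaks.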

Additional observations from a re-analysis of the deposited data

How the results depend on the processing

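No paired analysis was possible because each vector had a single peak list, and no library could be left out for the same reason. The direction of each width and area ratio, and the side with more unmatched peaks, were kept under the alternatives tried, but the order of TAZ4SA and EV among unmatched peaks was not. The main values were 52.6% of YAP-TFE3 and 92.3% of TFE3 peaks shared, a median log2 width ratio of 0.22, a median log2 area ratio of 1.22 and a median absolute summit shift of 16 bp. In the same order they were 56.3%, 94.3%, 0.21, 1.19 and 14 bp with a −log10 p of at least 4 in both lists, 71.3%, 85.3%, 0.24, 1.29 and 15 bp with equal numbers, and 38.2%, 57.5%, 0.18, 1.15 and 14 bp with an overlap of 50% of both peaks. Over all overlapping pairs the medians were 0.44, 1.43 and 26 bp. Unmatched YAP-TFE3 peaks numbered 2521, and 173 at a −log10 p of 8 or more, 1679 with a gap of 5 kb, and 141 among as many peaks as the TFE3 list has past the threshold, an alternative chosen after seeing the data. Unmatched TFE3 peaks numbered 4, and 0 at 8 or more and 20 with all 7 lists at equal numbers, where the YAP-TFE3 count was 2692. Most of these shifts follow from the construction of the alternative, which keeps fewer or stronger peaks or a stricter overlap. Autosomes alone moved no value beyond its interval, with 2468 unmatched YAP-TFE3 peaks.

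The share of unmatched YAP-TFE3 peaks in YAP5SA ranged from 40.8% (equal numbers) to 61.7%, that in TAZ4SA from 31.7% to 42.8% and that in EV from 27.2% to 33.9%. With equal numbers TAZ4SA held 32.2% and EV 27.2%, and with a gap of 0 the order turned, at 31.7% and 32.9%. Counting error is small throughout, and the variation between libraries is unknown.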
